A study of Mus musculus with 18 samples.

Results

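The last day of organoid culture, from day 4 to day 5, was followed in the messenger RNA of 6 libraries, 3 of day 4 and 3 of day 5, out of the 18 libraries of a time course over 6 days. Of the 24116 genes in the deposited table, 10476 had at least 1 RPKM (a read count corrected for gene length and for sequencing depth) in at least 3 of these 6 libraries and were tested. The series follows how intestinal organoids, hollow epithelial structures grown from intestinal cells, develop over the days of culture. Both groups were organoids of wild-type C57BL/6 mice aged 8 weeks, in medium with EGF at 100 ng/ml, Noggin at 100 ng/ml and R-spondin at 500 ng/ml. Both had also passed through the same earlier additions, namely medium conditioned by Wnt3a-producing cells (20%) together with Y-27632 (10 µM), which blocks the kinase ROCK, up to day 3, and CHIR99021 (3 µM), which blocks GSK3, up to day 1. The medium was therefore the same at both time points, and the groups differed by 1 day of culture. Each library pooled 30 wells, and by the sample titles replicates 1, 2 and 3 of both days came from mouse 1, 2 and 3. Replicate 1 of each day was not treated with DNase, so within these 6 libraries mouse 1 and the missing treatment cannot be told apart. At days 1 and 2, which enter the fit, replicate 2 is titled mouse 1, so those days hold no library of mouse 2.

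The small intestinal epithelium is renewed from stem cells at the base of the crypts, which give rise to absorptive enterocytes and to secretory cells. Among the secretory cells, Paneth cells sit beside the stem cells and release antimicrobial peptides, chiefly alpha-defensins and lysozyme, from large granules. Hypoxia-inducible factor (HIF) is a transcription factor that is broken down when oxygen is plentiful. When it persists, it raises genes of glycolysis, lactate export and mitochondrial turnover, as well as some of the enzymes that mark it for destruction.

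The 6 libraries held an implied 43010000 to 52300000 reads, a ratio of 1.22, and 9953 to 10552 genes reached 1 RPKM in each. The day 4 libraries were less alike than the day 5 libraries. Across the tested genes, log2(RPKM + 1) of day 4 libraries correlated with each other at 0.889 to 0.971, against 0.973 to 0.986 among day 5 libraries. The median SD of a gene over 3 libraries was 0.30 on the log2 scale at day 4 and 0.17 at day 5, and 71.7% of genes had the larger SD at day 4. Replicate 1 of day 4 was closest to replicate 1 of day 5, while replicates 2 and 3 of day 4 were each closest to a day 3 library. Epithelial identity genes summed to 3053 to 4294 RPKM per library. Marker sums for other cell types were near 0, at 1.46 to 5.73 RPKM for mesenchymal cells, 0.82 to 2.44 for immune cells, 0.07 to 0.26 for endothelial cells and at most 0.04 for red blood cells.

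Between day 4 and day 5, 21 genes rose and 0 fell by limma at an adjusted p under 0.05. Of the genes that rose, 7 encode alpha-defensins, 4 are on the list of HIF targets and Slc16a3 exports lactate. The 21 genes are 0.200% of those tested. Among them, Gm15292, Upk3b, Cd177 and Tpbgl passed the filter only through day 5, so they could enter the test only by being higher there. Of all tested genes, 22 passed only through day 5 and 5 only through day 4. At an unadjusted p under 0.05 there were 349 genes higher and 86 lower. Together these are 435 of the 10476 tested genes, fewer than a threshold of 0.05 passes on average when no gene changes. In each of the 21, the 3 day 5 values lay above the 3 day 4 values, so day 5 was necessarily higher within each mouse. Such separation was seen in 568 genes on the higher side (5.42%) and in 298 on the lower side (2.84%). The median log2 change of all tested genes was -0.03, with 4698 of them above 0. On the lists of alpha-defensins, other Paneth cell genes, goblet cell genes, HIF targets and glycolytic genes, 0 genes were lower at an unadjusted p under 0.05.

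The number of calls depended on how the spread was estimated and on single libraries. Without 1 library at a time there were 8 to 50 genes higher, namely 50, 9 and 9 when replicate 1, 2 or 3 of day 4 was dropped and 28, 8 and 10 when replicate 1, 2 or 3 of day 5 was. The alpha-defensins called were then 9, 4 and 4 and 7, 4 and 5, and the HIF targets called were 3, 2 and 2 and 6, 1 and 2. Of the 21 calls, 8 held in each of those 6 fits: Ccl6, Defa21, Defa29, Defa34, Gm14851, AA467197, Ankrd37 and Dao. With a pseudocount of 0.1 in place of 1, AA467197 and Ankrd37 were the 2 genes called, and 0 alpha-defensins were. When the spread was taken from the 6 libraries alone, 2 genes were called, Mir147 and AA467197, and with mouse as a factor in that fit 0 were, against 398 higher and 101 lower at an unadjusted p under 0.05. With mouse as a factor over all 18 libraries 28 genes rose, among them 20 of the 21, and Fkbp5 fell; that factor rests on the titles.

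**Figure D1:**
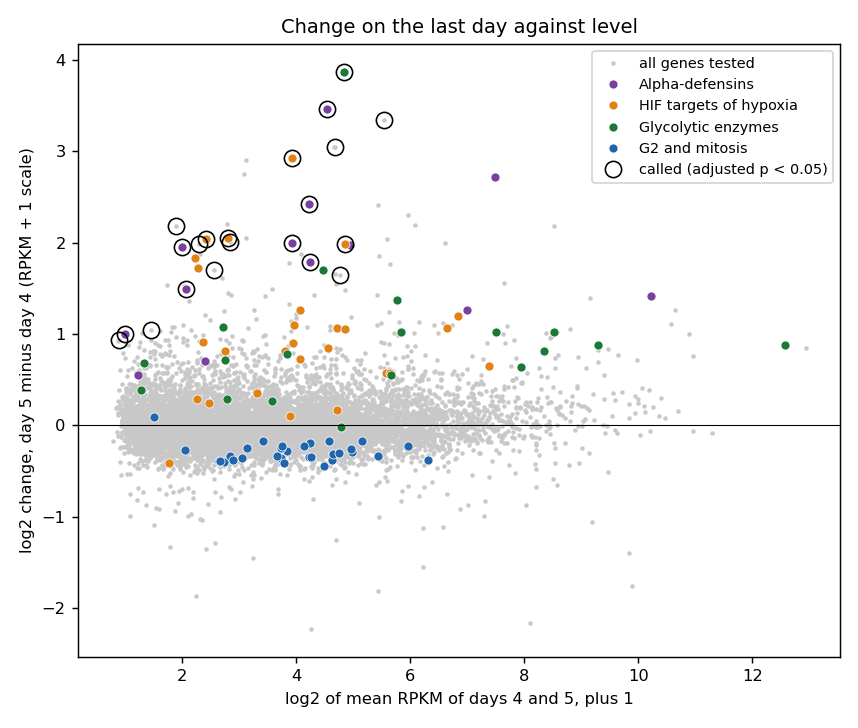
Change from day 4 to day 5 against level for the 10476 genes tested. The horizontal axis is the log2 of the mean RPKM of both days plus 1, the vertical axis the log2 change on the RPKM + 1 scale, coloured points are members of 4 gene lists and circles mark the 21 called genes. The alpha-defensins that were tested lie above 0, and 31 of the 32 genes of G2 and mitosis lie below 0, within 0.45 of it.

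Alpha-defensins, the antimicrobial peptides of Paneth cell granules, made up the largest family among the called genes. The promoters of Defa21 and Gm14851, whose values are described next, show how alike members of the family are. From the RefSeq sequences of build GRCm38.p6, 100 bases before and 20 bases after the TATAAA motif nearest the start of each gene are printed, with that motif in capitals. The Defa21 window is chr8:21025414-21025539 on the plus strand and the Gm14851 window is chr8:21096099-21096224 on the minus strand, 5′ to 3′.
Defa21: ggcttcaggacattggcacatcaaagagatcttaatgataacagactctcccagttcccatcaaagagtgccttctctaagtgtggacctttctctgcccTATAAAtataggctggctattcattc
Gm14851: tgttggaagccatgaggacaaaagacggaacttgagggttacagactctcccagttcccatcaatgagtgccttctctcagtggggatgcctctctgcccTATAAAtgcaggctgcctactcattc
The windows share 96 of 126 bases without gaps, and the 250 bases before the start of Defa22 are identical to those of Defa21. TATAAA, searched in the direction of the gene within 250 bases before the start, was found in 4 of the 5 tested alpha-defensins with a promoter entry, in 3.79% of tested genes and in 8.12% of all genes with an entry. A match is a run of letters and says nothing about use.

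The alpha-defensin genes lie in a cluster on chromosome 8 and several are near-identical copies. How the counting treated reads that match several copies is not given in the sources used here, so the division of reads among members is uncertain. Of 27 alpha-defensin genes in the table, 13 passed the filter, 7 rose, 0 fell and 6 did not pass the test. Of all tested genes, 0.200% were called higher. Of the 14 that were not tested, 6 were at 0 in the 6 libraries. Values did not overlap between days in 12 of the 13, against 5.42% of all tested genes. The 13 had a median log2 change of 1.79, with medians of 1.15 in mouse 1, 2.48 in mouse 2 and 1.5 in mouse 3. Summed over the family, alpha-defensin RNA was 754 to 880 RPKM at day 4 and 2158 to 2889 RPKM at day 5. In these pooled organoids, a change in the number of cells of a type and a change in RNA per cell cannot be told apart.

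Gm14851, which RefSeq names Defa38 (chr8:21094971-21096050), had the largest change of the family. Replicates 1, 2 and 3 of day 4 had 7.07, 1.46 and 1.54 RPKM and those of day 5 had 36.5, 56.0 and 30.2 RPKM. The lowest day 5 library was above the highest day 4 library, replicate 1 of mouse 1, which stood apart from the other day 4 values. The log2 change was 3.46 ± 0.38 (SE, n = 3 libraries a day, limma adjusted p = 0.000432). The SE of this and of the following log2 changes uses a spread estimated over all 18 libraries. Days 0 to 2 enter that spread, and there the 7 called alpha-defensins were at most 0.562 RPKM in any library. With the spread of the 6 libraries alone, or with a pseudocount of 0.1, Gm14851 was not called.

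Defa21 (chr8:21025545-21026517) was at 9.36, 2.63 and 4.02 RPKM at day 4 and at 29.8, 33.5 and 26.6 RPKM at day 5. Its log2 change was 2.43 ± 0.30 (limma adjusted p = 0.00137). Defa22, the copy that shares its promoter letters, was at 9.32, 2.32 and 5.12 RPKM and then at 21.8, 25.2 and 21.4 RPKM. The pair followed the same order of libraries at day 4, and at day 5 Defa22 was the lower of the pair in each library. Defa22 changed by 2.00 ± 0.33 (limma adjusted p = 0.0143) and missed the threshold without day 4 replicate 2 or 3 or day 5 replicate 2 or 3, up to an adjusted p of 0.106.

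Defa29 rose from 1.07, 0.435 and 0.302 RPKM to 4.37, 8.25 and 3.47 RPKM (log2 change 1.95 ± 0.23, limma adjusted p = 0.000733). Defa34 rose from 1.95, 0.88 and 0.873 RPKM to 5.49, 5.81 and 4.23 RPKM (log2 change 1.49 ± 0.16, limma adjusted p = 0.000432). In both genes replicate 1 was the highest library of day 4 and lay below each day 5 library. Defa26 rose from 8.74, 5.36 and 8.49 RPKM to 24.3, 34.5 and 25.9 RPKM (log2 change 1.79 ± 0.31, limma adjusted p = 0.0244). Gm15292, a further alpha-defensin, rose from 0.48, 0.235 and 0.233 RPKM to 1.22, 2.39 and 1.41 RPKM (log2 change 1.00 ± 0.16, limma adjusted p = 0.0112). Gm15292 passed the filter only through day 5, so it could enter the test only by being higher there. Neither call held in each of the 6 fits that left out a library. Defa26 was called in 2 of them, with a limma adjusted p up to 0.198. Gm15292 was called in 3, with a limma adjusted p up to 0.078.

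The most abundant alpha-defensins did not pass the test, although their days did not overlap. Defa24 was at 651, 630 and 662 RPKM at day 4 and at 1567, 2049 and 1617 RPKM at day 5. Its day 4 libraries nearly coincided, and its log2 change was 1.42 ± 0.53 (limma adjusted p = 0.841). That SE rests on a spread estimated over 6 days, and at day 3 the Defa24 libraries ranged from 62.9 to 312 RPKM. Defa30 went from 77.2, 38.5 and 30.0 RPKM to 277, 406 and 241 RPKM (log2 change 2.72 ± 0.59, limma adjusted p = 0.0968). AY761184 went from 19.1, 6.04 and 11.7 RPKM to 41.4, 48.8 and 50.8 RPKM (log2 change 1.97 ± 0.44, limma adjusted p = 0.113, and 0.0395 with mouse as a factor). Day 5 was higher in each mouse for these 3 genes, as it must be where days do not overlap. Defa3, the member whose days overlapped, was at 4.85, 1.78 and 2.72 RPKM and then at 6.53, 5.90 and 4.03 RPKM.

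**Figure D2:**
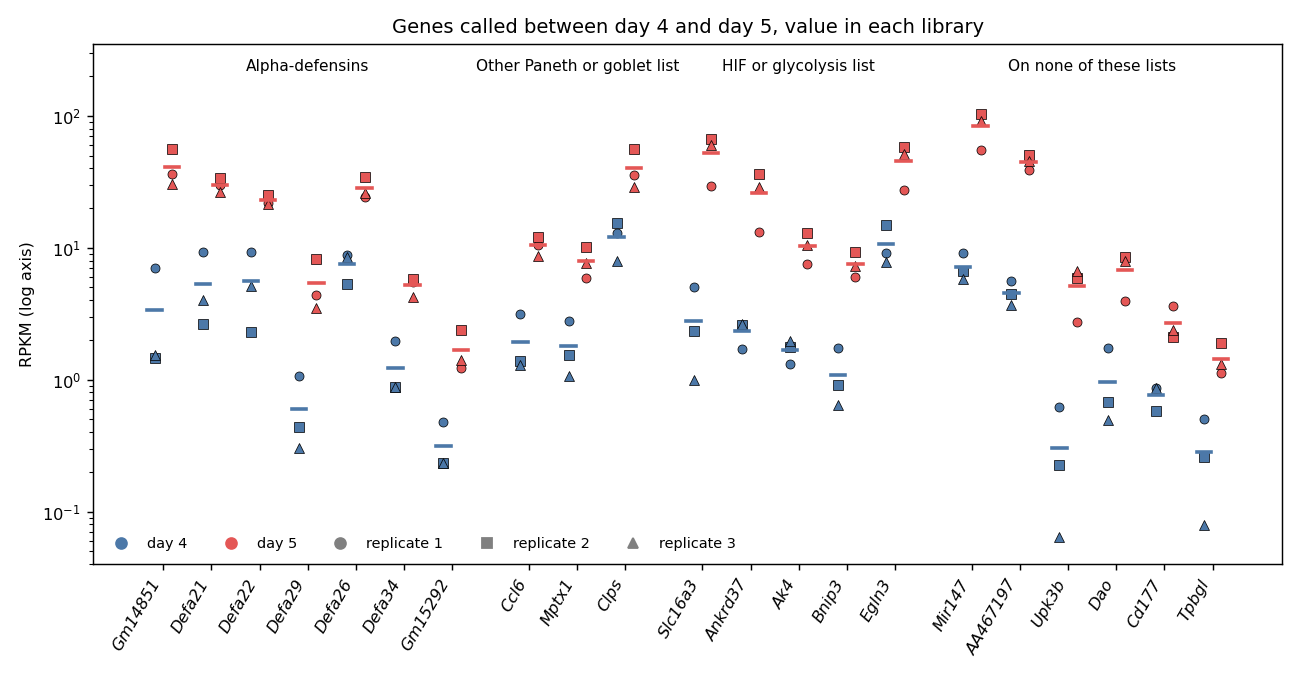
RPKM on a log axis of the 21 genes called between day 4 (blue) and day 5 (red), in each library, with replicates 1, 2 and 3 as circles, squares and triangles and the mean of 3 as a bar. The red points of each gene lie above its blue points, and in Gm14851 the day 4 circle at 7.07 RPKM stands above the other day 4 points.

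Beyond the defensins, 2 of 21 tested genes on a list of other Paneth cell genes rose, Mptx1 and Clps, and 0 fell. Of all tested genes, 0.200% were called higher. Mptx1 encodes a mucosal pentraxin and Clps encodes colipase, a cofactor of lipase. The list's median log2 change was 0.55 against -0.03 for all genes, and 8 of the 21 had days that did not overlap, each with day 5 higher, against 5.42% of all tested genes. Among the 8, Spink4 is also on the goblet cell list, and Nupr1 is also on a stress-response list of ATF4 targets. Nupr1 had the list's largest log2 change, 1.88, and at day 5 was at 8.49, 59.5 and 13.4 RPKM in mouse 1, 2 and 3. Of the 21, 1 passed the filter only through day 5. Mptx1 was at 2.77, 1.54 and 1.06 RPKM at day 4 and at 5.88, 10.2 and 7.71 RPKM at day 5. Its log2 change was 1.70 ± 0.32 (limma adjusted p = 0.0452). Clps was at 12.9, 15.3 and 8.00 RPKM and then at 35.7, 55.8 and 29.1 RPKM. Its log2 change was 1.65 ± 0.30 (limma adjusted p = 0.0335, and 0.0543 with mouse as a factor). The days of both genes were apart, with replicate 2 the highest library of day 5. Mptx1 held in 2 and Clps in 1 of the 6 fits that left out a library, with adjusted p-values up to 0.361 and 0.278.

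Lysozyme and the lectin Itln1, which bind or break down bacterial surfaces, were higher in each day 5 library without passing the test. Lyz1 was at 133, 110 and 142 RPKM at day 4 and at 296, 333 and 171 RPKM at day 5 (log2 change 1.00 ± 0.60, limma adjusted p = 0.999). Itln1 was at 350, 286 and 296 RPKM and then at 955, 856 and 658 RPKM (log2 change 1.39 ± 0.48, limma adjusted p = 0.698). Replicate 3 was the lowest day 5 library in both. The protease Mmp7, which cuts alpha-defensin precursors in the mouse, and the antimicrobial ribonuclease Ang4 had days that overlapped. Mmp7 went from 13.5, 22.7 and 38.8 RPKM to 26.8, 44.1 and 24.3 RPKM. Ang4 went from 29.4, 63.8 and 46.3 RPKM to 94.2, 114 and 51.2 RPKM. Mmp7 was lower at day 5 in mouse 3 and higher in mice 1 and 2, and Wnt3, a Paneth cell ligand for stem cells, stayed between 0.577 and 1.71 RPKM in the 6 libraries.

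Among 26 tested goblet cell genes, 1 rose, Ccl6, and 0 fell, against 0.200% of all tested genes called higher. Ccl6 encodes a chemokine and had the smallest adjusted p of the comparison. It was at 3.12, 1.38 and 1.30 RPKM at day 4 and at 10.6, 12 and 8.64 RPKM at day 5. Mouse 1 had the highest day 4 value, and the days were well apart. The log2 change was 2.00 ± 0.20 (limma adjusted p = 0.000402). Days 0 to 2 enter the spread behind that SE, and there Ccl6 was at most 0.319 RPKM in any library. With the spread of the 6 libraries alone, or with a pseudocount of 0.1, Ccl6 was not called. The list's median log2 change was 0.34, with 6 of 26 genes higher without overlap against 5.42% of all tested genes, and 1 of the 26 passed the filter only through day 5. The 6 include Spink4, which was counted on the list of other Paneth cell genes too. Klk1, a kallikrein protease, went from 6.82, 4.33 and 4.18 RPKM to 12.2, 11.6 and 13.6 RPKM (log2 change 1.17 ± 0.25, limma adjusted p = 0.0964, and 0.0395 with mouse as a factor). The mucin Muc2 overlapped between days, at 2.64, 7.21 and 4.82 RPKM and then 2.21, 9.12 and 14.8 RPKM.

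Hormone genes of enteroendocrine cells were higher at day 5 in several cases, but 0 of 20 tested passed limma's threshold, with 6 higher and 0 lower at an unadjusted p under 0.05, against 349 and 86 of all 10476. Days did not overlap in 9 of the 20, each with day 5 higher, against 5.42% of all tested genes, and the median log2 change was 0.59. Gip, the incretin of the upper intestine, was at 34.7, 18.4 and 15.2 RPKM at day 4 and at 73.0, 75.1 and 77.9 RPKM at day 5. The day 5 libraries nearly coincided, and mouse 1 was again the highest at day 4 (log2 change 1.77 ± 0.59, limma adjusted p = 0.657). Sst, encoding somatostatin, went from 4.52, 0.405 and 0.585 RPKM to 11.7, 6.40 and 11.8 RPKM (log2 change 2.21 ± 0.84, limma adjusted p = 0.886). Chga, a granule protein of these cells, went from 11.4, 7.24 and 6.77 RPKM to 16.9, 15.7 and 18.9 RPKM. Neurog3, the factor that specifies the lineage, had a log2 change of -0.21 and was among the 2 genes of the list below 0. Dclk1, a tuft cell marker, was at 0.0708 to 0.123 RPKM and was not tested.

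HIF targets formed the other main group. Of 27 tested, 4 rose, 0 fell and 23 did not pass the test, against 0.200% of all tested genes called higher. Days did not overlap in 15 of the 27, each with day 5 higher, against 5.42% of all tested genes. The median log2 change was 0.90, with 0.60 in mouse 1, 1.09 in mouse 2 and 1.05 in mouse 3. Of the 27 genes, 26 had a change above 0, the exception being Hif3a at -0.41.

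Promoters of Bnip3 and Egln3 are printed because both genes rose and HIF is known to bind the core ACGTG or GCGTG. From RefSeq, build GRCm38.p6, the bases from 250 to 21 before the start are given 5′ to 3′, with ACGTG and GCGTG on either strand in capitals. On the other strand these read CACGT and CACGC, and neighbouring matches can overlap. The Bnip3 window is chr7:138909527-138909756 on the minus strand and the Egln3 window is chr12:54203895-54204124 on the minus strand.
Bnip3: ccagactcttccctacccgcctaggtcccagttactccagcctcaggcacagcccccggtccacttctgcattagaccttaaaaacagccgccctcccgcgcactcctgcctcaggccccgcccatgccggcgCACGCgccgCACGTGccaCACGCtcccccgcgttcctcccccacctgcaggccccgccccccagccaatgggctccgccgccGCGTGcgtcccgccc
Egln3: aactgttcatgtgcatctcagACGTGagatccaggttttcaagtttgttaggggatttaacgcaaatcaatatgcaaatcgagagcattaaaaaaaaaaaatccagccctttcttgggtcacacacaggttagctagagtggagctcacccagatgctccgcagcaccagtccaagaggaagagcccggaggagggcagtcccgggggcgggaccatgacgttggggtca
The Bnip3 window holds 2 matches to ACGTG and 3 to GCGTG, counting each strand, and the Egln3 window holds 1 and 0. Within 250 bases before the start, either core was found in 20 of 23 tested HIF targets with an entry (87.0%), in 59.0% of 8385 tested genes and in 38.6% of 27025 genes with an entry. Among the 15 called genes with an entry the share was 46.7%. These are descriptions of letters near 1 annotated start per gene, and say nothing about binding.

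Ankrd37, an ankyrin repeat gene known as a HIF target (chr8:45996908-46000414), had the smallest adjusted p of the list. It was at 1.71, 2.61 and 2.64 RPKM at day 4 and at 13.1, 35.9 and 28.9 RPKM at day 5. The day 5 value of mouse 1 was the lowest of the 3 and still above each day 4 library. The log2 change was 2.92 ± 0.39 (limma adjusted p = 0.0028).

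Bnip3, a receptor that directs mitochondria to degradation (chr7:138890836-138909506), was at 1.73, 0.904 and 0.648 RPKM and then at 5.98, 9.36 and 7.24 RPKM. The days were apart, and its log2 change was 2.04 ± 0.30 (limma adjusted p = 0.00518, and 0.0557 without day 5 replicate 2). Ak4, an adenylate kinase of mitochondria, was at 1.32, 1.76 and 1.98 RPKM and then at 7.58, 12.9 and 10.5 RPKM (log2 change 2.05 ± 0.37, limma adjusted p = 0.029). Egln3, a prolyl hydroxylase that marks HIF for destruction (chr12:54178981-54203874), was at 9.10, 14.9 and 7.84 RPKM and then at 27.6, 57.5 and 51.5 RPKM (log2 change 1.98 ± 0.37, limma adjusted p = 0.034). Mouse 1 had the lowest day 5 value in all 4 called HIF targets. Ak4 and Egln3 were called in 1 of the 6 fits that left out a library, with adjusted p-values up to 0.238 and 0.278.

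Other HIF targets were higher in each day 5 library but missed the threshold. P4ha1, a collagen prolyl hydroxylase, went from 0.801, 1.44 and 0.727 RPKM to 3.32, 8.46 and 7.31 RPKM (log2 change 1.83 ± 0.39, limma adjusted p = 0.0871, and 0.0286 with mouse as a factor). Pfkfb3, which makes an activator of glycolysis, went from 0.658, 1.15 and 1.79 RPKM to 3.39, 9.12 and 7.07 RPKM (log2 change 1.72 ± 0.40, limma adjusted p = 0.13, and 0.0286 with mouse as a factor). Both were lowest in mouse 1 at day 5. Pdk1, which restrains entry of pyruvate into mitochondria, went from 8.03, 7.82 and 10.7 RPKM to 18.5, 25.3 and 24.1 RPKM (log2 change 1.26 ± 0.28, limma adjusted p = 0.103). Car9, a surface carbonic anhydrase, went from 78.9, 61.0 and 53.2 RPKM to 117, 131 and 156 RPKM (log2 change 1.06 ± 0.38, limma adjusted p = 0.738). The days of Vegfa, the vascular growth factor, overlapped: 4.86, 9.17 and 11 RPKM at day 4 and 8.15, 25.6 and 28.2 RPKM at day 5.

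In glycolysis, 1 of 19 tested genes rose, the lactate exporter Slc16a3 (chr11:120948484-120959000), and 0 fell, against 0.200% of all tested genes called higher. Slc16a3 had the largest log2 change of all called genes. It was at 5.07, 2.35 and 1.00 RPKM at day 4 and at 29.5, 66.9 and 60.01 RPKM at day 5. Mouse 1 was the highest library at day 4 and the lowest at day 5, and the days were apart. The log2 change was 3.87 ± 0.61 (limma adjusted p = 0.0112), and 2.33, 4.34 and 4.93 within mouse 1, 2 and 3. The call was lost without day 4 replicate 2 or 3 or day 5 replicate 2 or 3, with an adjusted p up to 0.0911.

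No glycolytic enzyme on the list passed the test. Over the 19 genes, which include the transporters Slc16a3 and Slc16a1, days did not overlap in 12, each with day 5 higher, against 5.42% of all tested genes, and the median log2 change was 0.81. Pfkl, a phosphofructokinase, went from 22.9, 31.7 and 31.8 RPKM to 51.7, 95 and 87.0 RPKM (log2 change 1.37 ± 0.30, limma adjusted p = 0.11, and 0.0286 with mouse as a factor). The aldolase Aldoc went from 15.3, 8.68 and 5.63 RPKM to 28.6, 35.8 and 32.2 RPKM (log2 change 1.70 ± 0.37, limma adjusted p = 0.0933). Its paralog Aldoa, at a higher level, went from 221, 252 and 243 RPKM to 353, 612 and 524 RPKM. Lactate dehydrogenase Ldha went from 503, 457 and 374 RPKM to 716, 962 and 774 RPKM. Slc16a1, the other lactate transporter on the list, had a log2 change of -0.02 and was the 1 gene of the 19 below 0.

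AA467197 and Mir147 rose together at 1 locus. AA467197, also named Nmes1, encodes a small mitochondrial protein (chr2:122637887-122641076, build GRCm38.p6), and the microRNA hairpin Mir147 (chr2:122640803-122640881) lies inside it. AA467197 was at 5.62, 4.44 and 3.67 RPKM at day 4 and at 38.8, 50.4 and 45.1 RPKM at day 5. Spread within each day was small beside the distance between days, and the log2 change was 3.04 ± 0.40 (limma adjusted p = 0.00217). The hairpin was at 9.05, 6.70 and 5.82 RPKM and then at 55.2, 103 and 91.9 RPKM (log2 change 3.34 ± 0.53, limma adjusted p = 0.0118, and up to 0.0979 without 1 library). Its RPKM was 1.42 to 2.05 times that of AA467197 in the 6 libraries. Reads of the hairpin and of its host cannot be told apart in such a table, and mature microRNA is not measured by libraries of this kind. With the DNase-treated libraries alone, neither was called.

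The other 4 called genes were on none of the lists above. Dao, a D-amino acid oxidase, rose from 1.73, 0.674 and 0.499 RPKM to 3.97, 8.52 and 7.95 RPKM (log2 change 1.98 ± 0.27, limma adjusted p = 0.00305). Upk3b, a uroplakin, rose from 0.626, 0.227 and 0.0645 RPKM to 2.71, 5.93 and 6.65 RPKM (log2 change 2.18 ± 0.36, limma adjusted p = 0.0144). Mouse 1 was highest at day 4 and lowest at day 5 in both genes. Cd177, a surface protein known from neutrophils, rose from 0.861, 0.577 and 0.863 RPKM to 3.64, 2.10 and 2.37 RPKM (log2 change 1.05 ± 0.19, limma adjusted p = 0.028). Here mouse 1 was the highest day 5 library. Immune cell markers summed to 0.82 to 2.44 RPKM in the 6 libraries, and which cells the Cd177 reads came from was not tested. Tpbgl rose from 0.503, 0.261 and 0.0793 RPKM to 1.13, 1.88 and 1.32 RPKM (log2 change 0.93 ± 0.16, limma adjusted p = 0.0181). Upk3b, Cd177 and Tpbgl were called in 2, 1 and 2 of the 6 fits that left out a library, with adjusted p-values up to 0.119, 0.215 and 0.158. Upk3b, Cd177 and Tpbgl stayed under 1 RPKM at day 4, and so passed the filter through day 5 alone.

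A pair of further genes had large changes that missed the threshold. Dnase1, a secreted nuclease, was at 14.6, 4.20 and 0.587 RPKM at day 4 and at 35.7, 58.7 and 32.2 RPKM at day 5. Its day 4 values were widely spread, and the log2 change was 3.05 ± 0.61 (limma adjusted p = 0.0584, and 0.0395 with mouse as a factor). Cybrd1, a ferric reductase of the brush border, was at 0.434, 1.22 and 1.86 RPKM and then at 8.18, 20.3 and 13.1 RPKM. The days were apart, and the log2 change was 2.75 ± 0.58 (limma adjusted p = 0.0861, and 0.018 with mouse as a factor).

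On the lower side, the largest decrease among named genes without overlap and with a mean of at least 5 RPKM on the higher day was in Fkbp5, a co-chaperone of steroid hormone receptors. It was at 22.8, 39.1 and 29.1 RPKM at day 4 and at 8.73, 3.65 and 5.18 RPKM at day 5. Mouse 1 had the lowest value at day 4 and the highest at day 5. The log2 change was -2.23 ± 0.44 (limma adjusted p = 0.0577), and Fkbp5 passed the threshold with mouse as a factor (adjusted p = 0.0395). It also passed when replicate 1 of either day was dropped, down to an adjusted p of 0.0435.

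By the same measure the next 4 decreases were Cyp1a1, Gstm3, Gclc and Gstm1, and they did not pass the test. Gclc, a subunit of the enzyme that starts glutathione synthesis, was at 57.6, 217 and 69.3 RPKM and then at 29.4, 44.2 and 24.8 RPKM (log2 change -1.55 ± 0.49, limma adjusted p = 0.552). The glutathione transferase Gstm1 was at 1546, 1933 and 612 RPKM and then at 474, 474 and 444 RPKM (log2 change -1.40 ± 0.73, limma adjusted p = 0.999). Gstm3, a close paralog with which reads may be shared, was at 1542, 2297 and 685 RPKM and then at 419, 379 and 394 RPKM. Replicate 2 was the highest day 4 library in these 3 genes, and the day 5 libraries of the transferases nearly coincided. Cyp1a1, a target of the aryl hydrocarbon receptor, was at 1.21, 13.0 and 6.19 RPKM and then at 0.995, 0.592 and 0.42 RPKM, with log2 changes of -0.15, -3.13 and -2.34 in mouse 1, 2 and 3.

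Several lists had medians of different sign in the 3 mice, and limma called 0 of their members. The number of genes that were at least 2-fold higher on the log2(RPKM + 1) scale at day 5 was 83 in mouse 1, 190 in mouse 2 and 554 in mouse 3, and 31, 56 and 341 were at least 2-fold lower. Brush border hydrolases, the digestive enzymes of enterocytes, had median log2 changes of -0.54, 0.07 and 1.82 in mouse 1, 2 and 3. Nutrient transporters had -0.25, 0.04 and 1.54, and genes of lipid absorption -0.36, -0.13 and 1.5. The lipoprotein gene Apoa4 shows the pattern, with 2506, 1279 and 150.1 RPKM at day 4 and 2051, 1749 and 1849 RPKM at day 5. Replicate 3 of day 4 was far below the other 5 libraries. At an unadjusted p under 0.05, 1 of 20 hydrolases, 1 of 24 transporters and 2 of 24 lipid genes were higher and 0 lower. Over all 10476 tested genes, 349 were higher and 86 lower at that threshold. Without that library the medians over the lists were -0.13 for the hydrolases, -0.13 for the transporters and -0.24 for lipid absorption, against 0.41, 0.31 and 0.27 with it.

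Proliferation genes went the other way. Genes of S phase had medians of 0.44, -0.04 and -0.89 in mouse 1, 2 and 3, and genes of G2 and mitosis had 0.35, -0.31 and -1.01. Over the 3 mice the medians were -0.15 and -0.33, with 31 of 32 genes below 0 in each list, and without day 4 replicate 3 they were 0.22 and 0.10. At an unadjusted p under 0.05 there were 0 genes higher and 0 lower in either list. Mki67, the proliferation marker, was at 10.0, 29.3 and 37.4 RPKM at day 4 and at 9.08, 17.8 and 25.7 RPKM at day 5, lower in each mouse, and its days overlapped. Day 4 was thus lowest in mouse 1 and highest in mouse 3, an order that was the same at day 5. Mki67 had the lowest log2 change of the G2 and mitosis list, -0.45, and is not typical of it. Of that list's 32 genes, 2 were lower in each mouse and 30 were higher in mouse 1. Of the 32 S phase genes, 0 were lower in each mouse and 32 were higher in mouse 1.

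**Figure D3:**
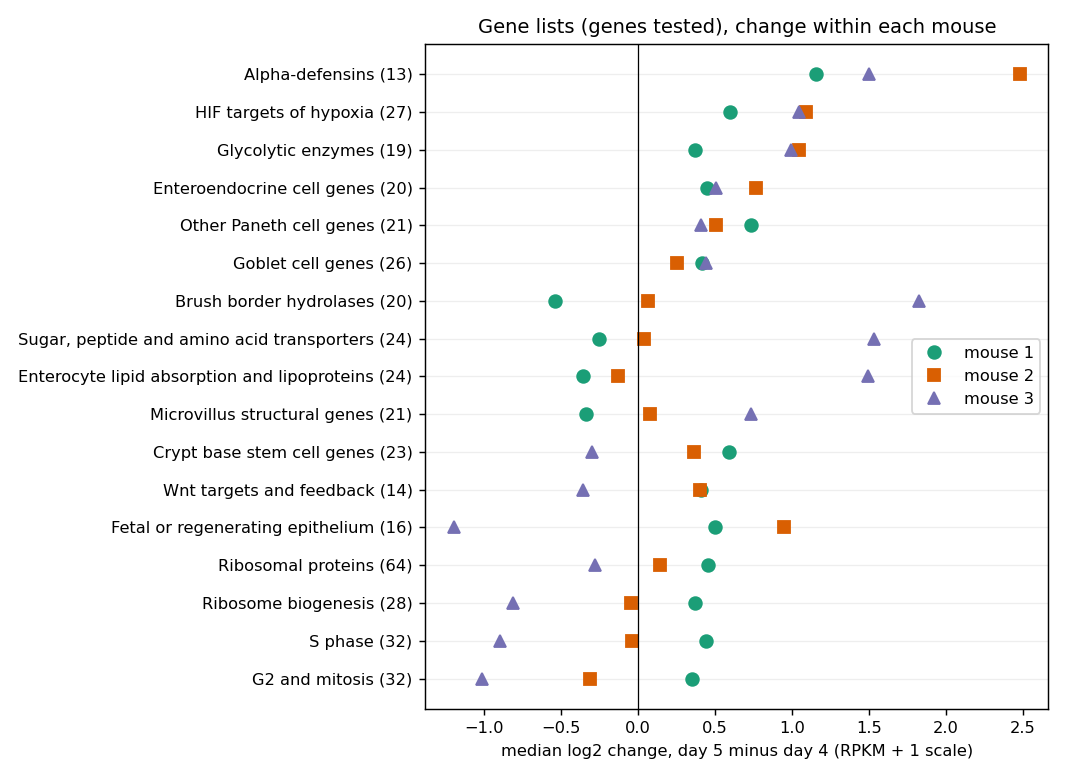
Median log2 change from day 4 to day 5 within mouse 1 (circle), mouse 2 (square) and mouse 3 (triangle) for 17 gene lists, with the number of genes tested in brackets. The 3 mice lie on the same side of 0 for the alpha-defensins, HIF targets, glycolytic enzymes, enteroendocrine, other Paneth and goblet cell genes, and on both sides of 0 for the other 11 lists. The 17 lists are a selection. Among lists not drawn, the mice also lay on the same side for BMP pathway and immediate early genes, and on both sides for YAP targets.

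Crypt base stem cell genes had a median log2 change of 0.20 over 23 tested, with 0.59, 0.37 and -0.30 in mouse 1, 2 and 3, and 0 genes called or at an unadjusted p under 0.05. Lgr5 and Olfm4 were the 2 whose days did not overlap, against 5.42% of all tested genes higher without overlap. Lgr5, the receptor that marks these stem cells, was at 1.16, 2.10 and 3.40 RPKM and then at 4.15, 5.85 and 5.43 RPKM (log2 change 0.98 ± 0.73, limma adjusted p = 0.999). Olfm4, a secreted crypt base protein, was at 246, 178 and 235 RPKM and then at 577, 407 and 355 RPKM (log2 change 1.00 ± 0.80, limma adjusted p = 0.999). Both were higher at day 5 in each mouse, which follows from days that do not overlap. Axin2, a Wnt target, overlapped at 9.61, 12.7 and 27.6 RPKM and then 16.6, 19.5 and 22.8 RPKM. Its day 5 value was higher in mice 1 and 2 and lower in mouse 3, and the 14 tested Wnt targets had medians of 0.41, 0.40 and -0.36. Genes of fetal or regenerating epithelium had medians of 0.50, 0.95 and -1.20, and 0.01 over the 3 mice, which turned to -0.09 after quantile normalization, -0.51 without day 4 replicate 1, -0.49 without day 5 replicate 2 and -0.23 with DNase-treated libraries alone. Clu, on that list, was at 3.2, 13.5 and 27.2 RPKM and then at 12.3, 165 and 35.9 RPKM, so its day 5 mean rests on mouse 2.

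On the remaining lists limma called 0 genes. Reg family lectins, secreted proteins that bind bacteria, had a median log2 change of 0.83 over 6 tested. Their medians were -0.12, 0.92 and 2.13 in mouse 1, 2 and 3. Of the 6, 1 gene was higher at an unadjusted p under 0.05, against 349 of all 10476. BMP pathway genes had a median of 0.19 with 3 of 14 higher without overlap, against 5.42% of all tested genes. Bmp2, a ligand that opposes Wnt in the crypt, was at 0.927, 0.637 and 0.632 RPKM and then at 1.86, 1.97 and 1.87 RPKM (log2 change 0.75 ± 0.16, limma adjusted p = 0.0847). Its day 5 values nearly coincided, and it passed the filter only through day 5, so it could enter only by being higher there. Immediate early genes had a median of 0.30 with 4 of 17 higher without overlap, against 5.42% of all tested genes. The stress factor Atf3 was at 1.42, 1.40 and 1.26 RPKM and then at 2.13, 4.80 and 3.52 RPKM (log2 change 0.88 ± 0.26, limma adjusted p = 0.46). Notch pathway genes had a median of 0.19 and YAP targets one of -0.02. Genes of protein folding in the endoplasmic reticulum had a median of -0.08, and ribosome biogenesis genes one of -0.22, with medians of 0.37, -0.04 and -0.81 in mouse 1, 2 and 3 and 0.17 without day 4 replicate 3.

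Over the whole culture, 20 of the 21 called genes had their highest mean at day 5, which their choice as higher than at day 4 favours, against 1845 of 10476 tested genes. The exception was Bnip3 with 10.1 RPKM at day 0 against 7.53 RPKM at day 5. The 13 tested alpha-defensins were highest at day 5, and their median log2 change from day 3 to day 4 was already 1.82. HIF targets had a median of -0.11 on the step before, 14 of 27 were lowest at day 4, and the highest mean fell at day 5 in 13 and at day 0 in 11. Of all tested genes, 1236 were lowest at day 4 and 3401 highest at day 0. Ankrd37 had means of 11.8, 2.81, 2.71, 2.73, 2.32 and 26.0 RPKM from day 0 to day 5, and Defa24 means of 97.8, 54.0, 39.8, 228, 648 and 1744 RPKM. Fkbp5 had its highest mean at day 3, with 46.0 RPKM. Between day 3 and day 4, 4 genes rose (0.0382% of those tested), Defa21, Defa22, Defa26 and Defa34, and 0 fell, with 207 higher and 308 lower at an unadjusted p under 0.05. Both steps share the day 4 libraries, and both were tested on genes filtered by days 4 and 5. A gene that fell under 1 RPKM after day 3 and stayed there was therefore not tested. A direct contrast of the steps called 0 genes by limma, with 102 at an unadjusted p under 0.05, so a difference between the steps was not shown for any gene named here.

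**Figure D4:**
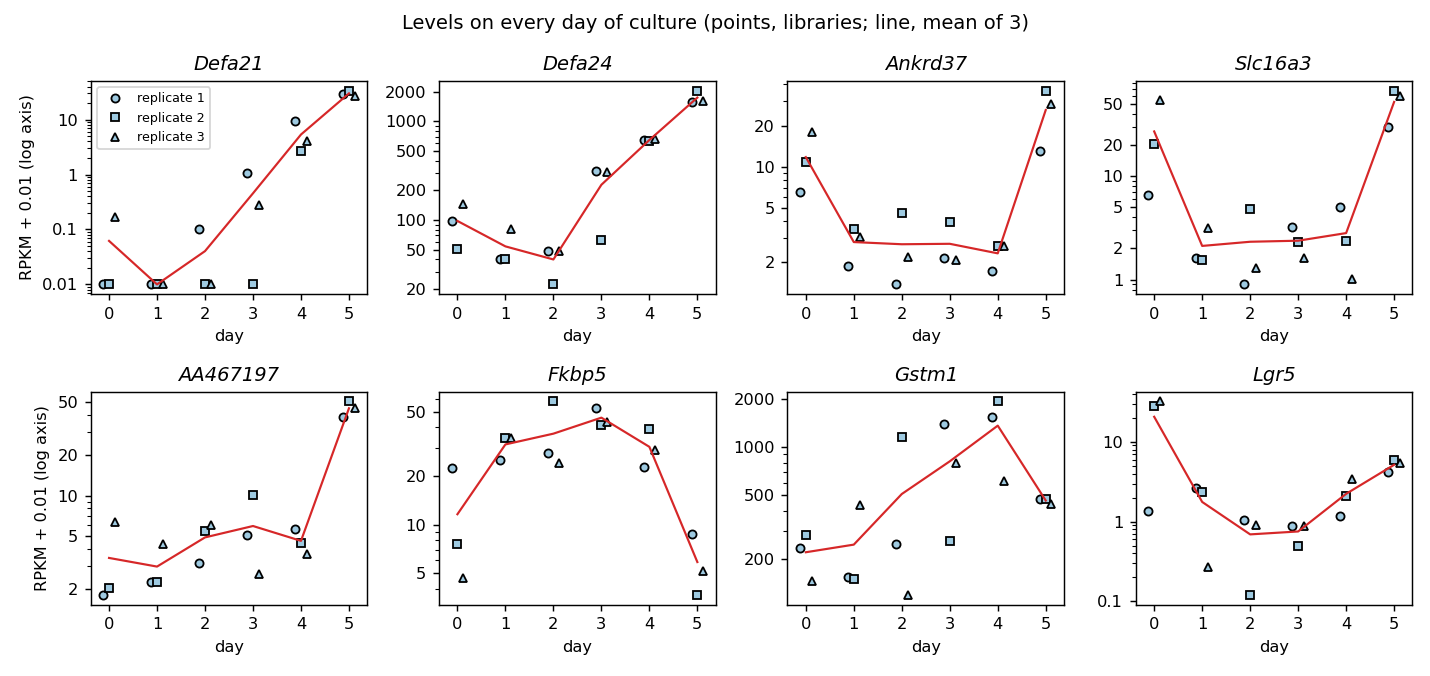
RPKM with a small offset, on log axes, of 8 genes on each day of culture, with replicates 1, 2 and 3 as circles, squares and triangles and the mean of 3 libraries as a line. Defa21 and Defa24 climb over several days, Ankrd37, Slc16a3 and AA467197 are low at day 4 and high at day 5, and Fkbp5 and Gstm1 are lower at day 5 than at day 4.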

How the data were processed

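RNA of pooled wells of mouse intestinal organoids was sequenced with Illumina TruSeq mRNA libraries, per the labels' protocols. The authors deposited RPKM values per gene. Tools listed in the submitters' processing notes, without roles, are STAR 2.5.2b, edgeR 3.20.5 and bcl2fastq 2.17, and the build listed is mm10. Which annotation was used, whether strand was used and how reads with several matches were handled is not given in the sources used here. Of the Entrez numbers, 24061 of 24116 matched RefSeq, which gave coordinates and promoter sequences of GRCm38.p6, the first entry being used where a gene had several.

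Library sizes were read from the steps between low RPKM values and exon lengths. The deposited RPKM were tested on log2(RPKM + 1) with limma 3.58.1 in R 4.3.3 (lmFit, eBayes with a trend, two-sided, Benjamini-Hochberg over all genes tested, threshold 0.05). The 18 libraries entered 1 model with a coefficient for each day, so the days share 1 estimate of the spread, and fold changes of low genes are understated by the pseudocount of 1. The filter was 1 RPKM in 3 of the 6 libraries. Figures were drawn with matplotlib 3.10.9 in Python 3.11.15. The test was checked on simulated data. The simulation gave each gene 1 spread for all days and no mouse effect. It therefore cannot show how the test behaves where the days differ in spread, as day 4 and day 5 did.

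The titles give the mouse of each library, so same numbers pair the libraries of day 4 and day 5; the main fit has no such term. Deviations from the day means correlated at 0.47, 0.34 and 0.17 between same-numbered libraries, and at 0.25 between replicate 3 of day 4 and replicate 2 of day 5. Alternatives were the mouse as a factor, only the 6 libraries, a pseudocount of 0.1, no filter and a filter at 5 RPKM, median-of-ratios and quantile scaling, array weights, only DNase-treated libraries, and each library left out.

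The comparison, the gene lists and the rule for named genes were chosen with earlier results of these data known. The rule names each called gene and the 5 largest increases and 5 largest decreases without overlap that reach a mean of 5 RPKM on 1 day, without pseudogenes or genes with a predicted name only. It adds 27 marker genes, of which those that bear on a result are given, and from each list described up to 3 further members without overlap. Defa3, Ldha, Hif3a, Neurog3, Rnf186 and Slc16a1 were added after their values were seen.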

Additional observations from a re-analysis of the deposited data

How the results depend on the processing

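The 21 called genes kept their direction under the alternatives run. Where libraries were left out or weighted, or the pseudocount was changed, no other outcome was possible. Each day 5 value of these genes lay above each day 4 value. Of 1608 recomputed values of named genes 18 had another sign, and of 662 recomputed list medians 49 did, over 19 lists, among them S phase, G2 and mitosis and the enterocyte lists without day 4 replicate 3. The number of genes past the threshold was less stable. Against 21 genes higher and 0 lower, limma called 2 and 0 with only the 6 libraries, 28 and 1 with the replicate block of mouse over all 18 libraries, 0 and 0 with that block in the 6 libraries, 2 and 0 with a pseudocount of 0.1, 28 and 1 without a filter, 13 and 0 with a filter at 5 RPKM, 20 and 0 or 19 and 0 after median-of-ratios or quantile scaling, and 26 and 2 with DNase-treated libraries. Leaving out 1 library gave 8 to 50 higher and 0 to 4 lower. The alpha-defensins called, 7 in the report, were 0, 8, 0, 0, 6, 4, 7, 7 and 7 in the same order of settings, and 4 to 9 with a library left out. The HIF targets called, 4 in the report, were 0, 6, 0, 1, 2, 4, 4, 3 and 5, and 1 to 6. Over all 18 libraries the block changed no other call than those given in the report and that of Rnf186, which rose.

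Array weights raised the counts most. The planned estimate stopped before it converged and gave day 4 replicate 2 a weight of 838, against 0.228 and 0.132 for the other day 4 libraries. It called 2142 higher, 1911 lower, 13 alpha-defensins, 23 HIF targets and 6032 genes whose steps differed. A gene-by-gene estimate of the weights, chosen after these values were seen, gave that library 9.01 and called 998, 594, 13, 21 and 1220. Apart from array weights, the contrast of the steps called 0 genes in each fit that could make it. Fits with fewer libraries or genes differ in what they test; for the other changes the cause was not tested.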
